A study of Mus musculus with 8 samples.

Results

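Collagen genes, the genes that modify and fold collagen chains, and matrix genes of fibroblasts were followed in oligodendrocyte precursor cultures kept at 31.5 °C or at 37 °C. The set was drawn up by symbol: 33 genes, of which 32 had at least 1 probe set with a single gene symbol, out of 18193 genes with such a probe set. Fbn1 was not analysed here. The other 32 had 61 probe sets. For each gene the probe set with the highest mean stood for the gene, and 31 of the 32 were bright enough to be tested (a scaled signal of at least 36.3, the median over probe sets). Fbln2, a matrix glycoprotein gene, stayed below it, with a signal of 3.84 to 36.8 over the 8 arrays. The genes were read in 4 classes: Serpinh1 with 9 processing enzymes, 10 collagens, 10 other matrix genes and 3 contractile or surface genes.

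The cultures came from ICR mouse embryos aged 15 days. Cells of the cerebral hemispheres were grown for 5 days with 10% serum and then, without serum, for 48 hr at 31.5 °C (4 arrays) or at 37 °C (4 arrays). The strain, the serum phase and the serum-free phase were shared by both groups. The arrays also read RNA of other brain cells: 9 astrocyte markers summed to a scaled signal of 9752 to 22219 over the 8 arrays, and 9 markers of the labelled precursors to 16012 to 19862. The labels name 3 mice per group beside 4 arrays and do not give which cultures were separate, so errors and p-values measure the spread between these samples, which may be technical. Before scaling, the trimmed mean signal of the arrays lay between 132 and 248, with the lowest in replicate 4 at 37 °C (scaling factor 1.60). Arrays with the same replicate number deviated together from their group means, so the numbers pair the arrays. Each change below is a log2 difference, 31.5 °C minus 37 °C, ± SE from limma, with p-values adjusted (Benjamini-Hochberg) over the 11525 tested genes and called under 0.05. For the members, the value from the fit with the replicate number as a block is given where it changes a call.

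Fibrillar collagens are made as long chains in the endoplasmic reticulum. Prolyl 4-hydroxylases add the hydroxyl groups that keep the triple helix stable at body temperature, lysyl hydroxylases prepare the sites of later crosslinks, and the chaperone HSP47, the product of Serpinh1, binds the folded helix until it leaves the compartment. Outside the cell, BMP1 trims the chains and lysyl oxidases crosslink the fibrils. In the brain most fibrillar collagen is made by fibroblasts of the meninges and by cells of the vessel wall, and collagen IV belongs to basement membranes.

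Serpinh1 and P4ha1, the gene of a catalytic subunit of prolyl 4-hydroxylase, were lower at 31.5 °C by 2.0-fold and 1.49-fold. Thy1, a surface marker of fibroblasts and neurons, was lower by 1.47-fold, and Bmp1 was higher by 1.21-fold. None of the 10 collagens passed the test in the fit without the block (the lowest adjusted p in limma was 0.314, and at an unadjusted p under 0.05 there were 0 in either direction). Of the 31 genes tested, 3 fell (9.68%), 1 rose and 27 did not pass, where 7.77% of all genes fell and 7.64% rose, so these counts lie near the background (15.4% in either direction). With the replicate block 8 fell (25.8%) and 1 rose, against 15.8% and 15.0% of all genes (30.8% in either direction). The 4 arrays at each temperature did not overlap for Serpinh1 and P4ha1, which were lower, and for Bmp1, which was higher, against 10.5% and 11.7% of all genes (22.2% in either direction). With probe sets tested singly, 6 of the 47 tested probe sets of the members fell and 0 rose, beside 7.05% and 6.55% of all probe sets tested (13.6% together). With the block added 12 fell and 3 rose, beside 14.2% and 12.5% of all (26.8% together).

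The bases before the transcription starts of Serpinh1 and P4ha1 are shown because these are the members that were lower without overlap between the groups. The sequences are from RefSeq on build GRCm38.p6, read 5′ to 3′ on the gene's strand and ending at the base before the start. The Serpinh1 window is chr7:99353240-99353489 on the minus strand and the P4ha1 window chr10:59323046-59323295 on the plus strand. Capitals mark matches to a GC box (GGGCGG) or to ACGTG, a form of the core of the hypoxia response element, searched on both strands.
Serpinh1: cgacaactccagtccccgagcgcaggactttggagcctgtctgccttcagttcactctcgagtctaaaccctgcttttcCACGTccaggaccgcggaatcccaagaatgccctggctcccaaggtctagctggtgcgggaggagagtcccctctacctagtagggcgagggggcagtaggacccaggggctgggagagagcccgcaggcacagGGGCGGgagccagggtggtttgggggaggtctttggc
P4ha1: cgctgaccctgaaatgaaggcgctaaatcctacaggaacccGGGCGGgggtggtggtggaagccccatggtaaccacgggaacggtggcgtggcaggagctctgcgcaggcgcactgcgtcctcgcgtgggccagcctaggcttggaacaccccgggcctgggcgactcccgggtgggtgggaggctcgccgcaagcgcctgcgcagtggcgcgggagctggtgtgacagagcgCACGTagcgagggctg
Each window holds 1 match to ACGTG, at bases -171 to -167 in Serpinh1 and -16 to -12 in P4ha1 counted from the start, and 1 to GGGCGG, at -37 to -32 and -209 to -204. No match of GAANNTTC or TTCNNGAA, 2 forms of the heat shock element, of CCAAT or of TATAAA was found in either window. Other forms of the heat shock element and of the hypoxia response core, such as GCGTG, were not searched. Bases outside the windows were not searched either, so absence of the heat shock element from these genes is not shown. The matches marked do not overlap. Promoter windows were used for 21 members. ACGTG was in those of 8 of them and in 16.6% of all 32851 windows of this length, and GGGCGG in 12 of them and in 32.7% of all. GAANNTTC or TTCNNGAA was in 1 of the 21, P4ha2, and in 12.8% of all.

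Serpinh1 is read by 2 probe sets. On the brighter, 1456733_x_at, the signal at 31.5 °C was 981, 805, 759 and 1181 in replicates 1 to 4, and at 37 °C it was 2002, 1581, 1946 and 1842. Each array at 31.5 °C was below each array at 37 °C. The means were 931 ± 192 and 1843 ± 187 (SD, n = 4), a change of -1.0 ± 0.15 (adjusted p = 0.0051), and -1.03, -0.97, -1.36 and -0.64 within replicate numbers 1 to 4. On 1450843_a_at the signals were 1135, 921, 878 and 1115 at 31.5 °C against 1975, 1325, 1880 and 1361 at 37 °C, again without overlap. That change was -0.68 ± 0.16 (adjusted p = 0.0273 with probe sets tested singly), so the probe sets share the direction and differ in size. The probe set ending in _x_at can also bind related transcripts. Over 24 alternatives Serpinh1 passed in all 24, with changes of -1.12 to -0.68.

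P4ha1 (1452094_at) was at 414, 426, 458 and 408 at 31.5 °C and at 567, 672, 732 and 581 at 37 °C. The groups did not overlap, and the spread at 31.5 °C was small (426.5 ± 22.0 against 638 ± 77.9). The change was -0.57 ± 0.10 (adjusted p = 0.00877), with -0.45, -0.66, -0.68 and -0.51 within replicate numbers 1 to 4. Its other probe set, 1426519_at, changed by -0.52 ± 0.12 (adjusted p = 0.0266 with probe sets tested singly). Scaling the arrays to a common median was the only 1 of 24 alternatives to end the call (-0.49, adjusted p = 0.0816). P4ha2, the other catalytic subunit measured among the members, was dim, at 51.0 to 138 at 31.5 °C and 66.4 to 122 at 37 °C, and had -0.32 ± 0.30 (adjusted p = 0.523). P4hb, the protein disulfide isomerase that is the partner subunit of the same enzyme, was at 3435 ± 114 and 3204 ± 188 (0.10 ± 0.08, adjusted p = 0.403). It was higher within each of the 4 replicate numbers. The subunits of 1 enzyme therefore carried values of unlike sign, of which P4ha1 alone passed the test.

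All 3 lysyl hydroxylase genes had values below 0 in each of the 4 pairs, and none passed without the block. Plod3 (1415901_at), whose product also adds sugars to hydroxylysine, was at 409, 462, 628 and 463 against 611, 630, 630 and 741. Replicate 3 at 31.5 °C lay inside the range of the 37 °C arrays and the other 3 below it. The change was -0.43 ± 0.14 (adjusted p = 0.0654, and 0.0385 with the block). It was -0.55 without replicate 3 at 31.5 °C (adjusted p = 0.0247). Plod2 (1416687_at), the hydroxylase of the telopeptides, was at 708, 644, 546 and 663 against 997, 777, 779 and 690, with replicate 1 at 31.5 °C overlapping the 37 °C arrays. It had -0.33 ± 0.13 (adjusted p = 0.117, and 0.041 with the block), and its dimmer probe set 1416686_at -0.21 ± 0.18. Plod1 had -0.40 ± 0.18 (adjusted p = 0.163, and 0.0609 with the block).

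Of the enzymes that act outside the cell, Bmp1 had values above 0 and Lox, on its brighter probe set, values below 0. Bmp1 (1426238_at), the procollagen C-proteinase gene, was at 484, 493, 449 and 444 at 31.5 °C and at 383, 401, 398 and 362 at 37 °C. All 4 cold arrays were above all 4 warm ones, with 467 ± 24.6 against 386 ± 17.9. It rose by 0.27 ± 0.08 (adjusted p = 0.0431), a call near the threshold: leaving out any of the 8 arrays ended it, as did median scaling, the mean of its probe sets and testing probe sets singly (up to adjusted p = 0.167). Its second probe set, 1427457_a_at, had 0.31 ± 0.15 (adjusted p = 0.194, and 0.0383 with the block, where it rose), higher in 4 of 4 pairs. Lox, a lysyl oxidase gene, had -0.44 ± 0.42 (adjusted p = 0.529, and 0.0898 with the block) on 1416121_at, lower in 4 of 4 pairs, and -0.0059 on 1448228_at. On 1416121_at its signal was 160 to 211 in replicates 1 to 3 and 604 in replicate 4 at 31.5 °C, and 244 to 326 and 605 at 37 °C. Loxl1, a related oxidase gene, had 0.05 ± 0.21 (adjusted p = 0.895).

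**Figure D1:**
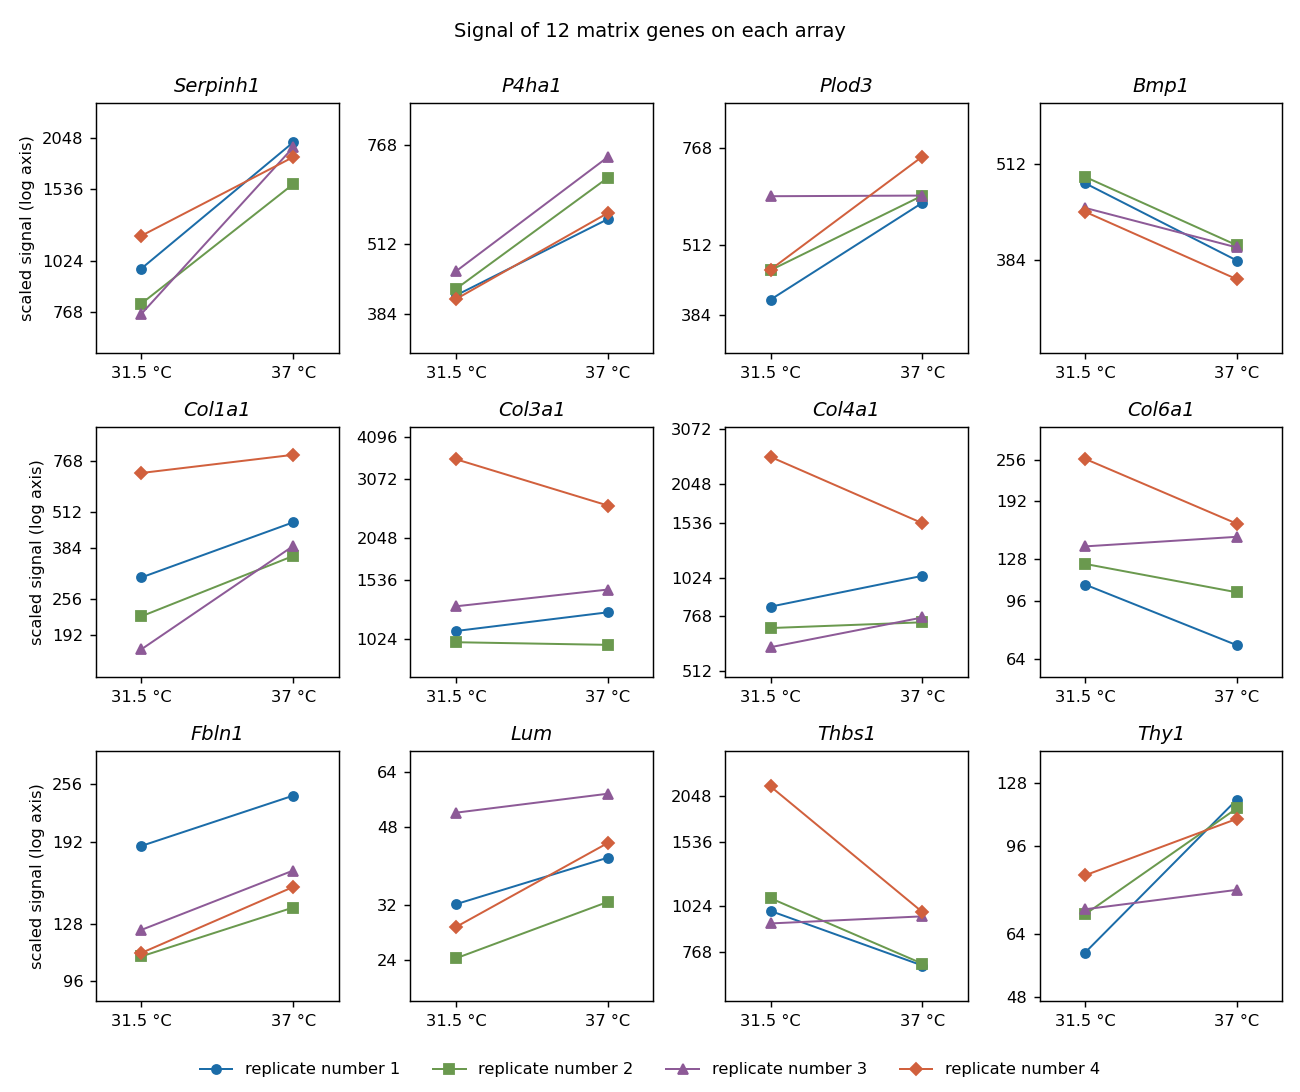
Scaled signal of 12 members on each of the 8 arrays (log axes that differ between panels), with a line joining the 2 arrays of a replicate number. Serpinh1, P4ha1 and Bmp1 separate by temperature, while replicate 4 (diamonds) is the highest at both temperatures for Col1a1, Col3a1, Col4a1 and Col6a1.

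Among the collagens the largest value belonged to Col1a1, the main chain of collagen I. Its probe set 1423669_at read 303, 222, 171 and 697 at 31.5 °C and 471, 360, 390 and 806 at 37 °C. The groups overlapped because replicate 4 was far above the others at both temperatures, and each cold array was below the warm array of its number. The change was -0.68 ± 0.42 (adjusted p = 0.314), and it fell with the block (adjusted p = 0.0197), the only one of the 10 collagens to do so on the brightest probe set. Its dimmer probe set 1455494_at had -0.47 ± 0.48 (adjusted p = 0.115 with the block and probe sets tested singly). Without replicate 4 at 31.5 °C the value of Col1a1 was -1.09 (adjusted p = 0.0499). Col1a2, the partner chain in collagen I, had -0.28 ± 0.19 (adjusted p = 0.369) on 1450857_a_at and 0.04 ± 0.14 on 1423110_at.

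Col3a1, the chain of collagen III, was at 1081, 1000, 1281 and 3525 at 31.5 °C and at 1229, 982, 1437 and 2563 at 37 °C. Replicate 4 stood above replicates 1 to 3 at both temperatures, and no difference between temperatures was detectable against that spread (0.03 ± 0.43, adjusted p = 0.971). With the block the SE of Col3a1 was 0.12 (adjusted p = 0.851). Its dimmer probe set 1427884_at gave 0.48 ± 0.42, higher in 4 of 4 pairs (adjusted p = 0.494, and 0.0882 with the block). Col5a2, a collagen V chain that regulates fibril width, was at 594 to 642 in replicates 1 to 3 and 1546 in replicate 4 at 31.5 °C, and at 868 to 1456 at 37 °C. It had -0.49 ± 0.31 (adjusted p = 0.322, and 0.0688 with the block). Its dimmer probe set 1450625_at had -0.58 ± 0.26, lower in 4 of 4 pairs (adjusted p = 0.178), and fell with the block (adjusted p = 0.0411 with probe sets tested singly). Without replicate 4 at 31.5 °C the change of Col5a2 on its brighter probe set was -0.82 (adjusted p = 0.023). Col5a1, the other collagen V chain among the members, had -0.08 ± 0.22 (adjusted p = 0.844).

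The basement membrane chains Col4a1 and Col4a2 had similar profiles over the arrays. Col4a1 was at 825, 704, 611 and 2505 at 31.5 °C and at 1037, 735, 761 and 1532 at 37 °C. Col4a2 was at 424, 316, 324 and 1077 and at 437, 336, 361 and 740. For both, the differences within replicate numbers 1 to 3 were below 0 and that within number 4 was above it (0.71 for Col4a1 and 0.54 for Col4a2). The changes were 0.00 ± 0.43 and 0.06 ± 0.40. The 3 chains of collagen VI, which forms beaded filaments around cells, had values above 0: 0.36 ± 0.33 for Col6a1, 0.27 ± 0.28 for Col6a2 and 0.14 ± 0.36 for Col6a3. None passed, with or without the block (adjusted p = 0.0853, 0.135 and 0.645 with it). The dimmer Col6a2 probe set 1452250_a_at had 0.56 ± 0.28 (adjusted p = 0.213, and 0.0604 with the block, with probe sets tested singly). Without both arrays of replicate 3, Col6a1 and Col6a2 rose in the blocked fit (0.52, adjusted p = 0.0286, and 0.42, adjusted p = 0.0295).

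In the RefSeq annotation Col4a1 and Col4a2, Col6a1 and Col6a2, Col3a1 and Col5a2, and Dcn and Lum are direct neighbours among protein-coding genes. The values of the first 2 pairs lay close to each other. Those of Col3a1 (0.03) and Col5a2 (-0.49) lay apart, though that difference was not tested.

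**Figure D2:**
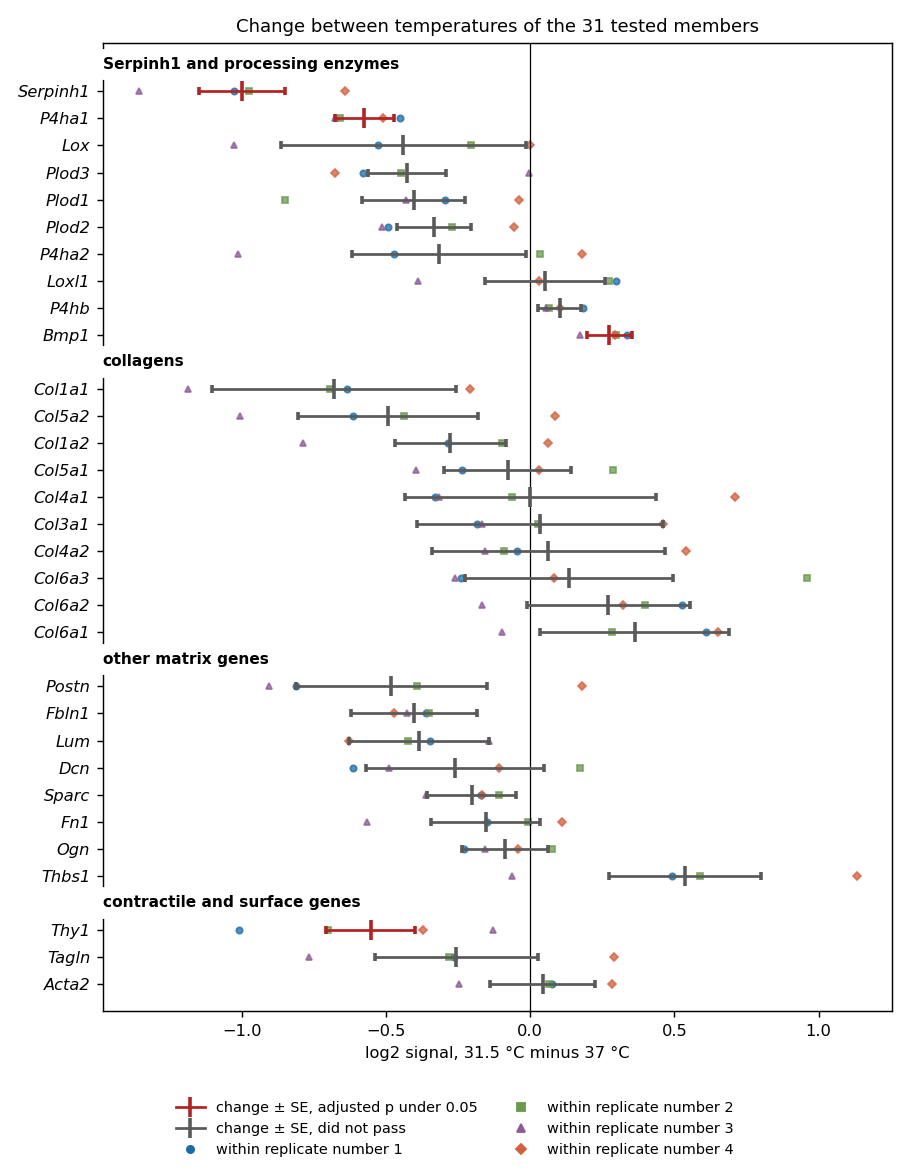
Log2 change, 31.5 °C minus 37 °C, of the 31 members tested (vertical tick, with SE as bars, red where adjusted p was under 0.05) and the difference within each replicate number (symbols). Serpinh1, P4ha1 and Thy1 lie below 0 and Bmp1 above it past the threshold. The collagens spread from -0.68 to 0.36, with wide errors in this fit without the block.

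Among the members read by class, the processing genes sat lower than the collagens. Outside the members the order was the other way. There the median was -0.03 over 19 further processing and secretion genes and -0.34 over 17 further collagens. The median change was -0.37 over Serpinh1 and its 9 enzymes, 0.02 over the 10 collagens, -0.23 over 8 other matrix genes and -0.26 over 3 contractile or surface genes, beside -0.0017 over all genes tested. The class of Serpinh1 had 7 of 10 values below 0, and the collagens 4 of 10. Within replicate numbers 1 to 4 the median of the processing class was -0.46, -0.24, -0.47 and -0.02, and that of the collagens -0.24, -0.02, -0.29 and 0.20. The class medians therefore moved together over the numbers, with the processing genes the lower in each of the 4 pairs. With the block 4 of the 10 processing genes fell (Serpinh1, P4ha1, Plod2 and Plod3) and 1 of the 10 collagens, against the 15.8% of all genes.

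The change of Serpinh1 was set against that of each collagen on the same arrays, 10 comparisons in all. With 1456733_x_at the difference of changes was below 0 for each of the 10 and in each of the 4 pairs. It ran from -0.32 against Col1a1 to -1.36 against Col6a1. For Col6a1 it was -1.64, -1.26, -1.26 and -1.29 within numbers 1 to 4. An exact two-sided permutation test of 4 against 4 arrays, which ignores the pairs and cannot go below 0.0286, gave that smallest p for Col5a1, Col6a1 and Col6a2 and 0.514 for Col1a1. Adjusted over the 10, 0 passed (adjusted p = 0.0816 at the lowest), with 3 at an unadjusted exact p under 0.05. After adjustment a collagen could pass only if several reached the smallest p at once. This test therefore cannot show that the changes are alike. With the other Serpinh1 probe set the differences were smaller, from 0.00 against Col1a1 to -1.04 against Col6a1, and were below 0 in 4 of 4 pairs for 9 of the collagens (adjusted p = 0.19 at the lowest). Within pairs the difference from Col1a1 was -0.32 ± 0.12 with 1456733_x_at and 0.0037 ± 0.15 with 1450843_a_at (SD, n = 4 pairs). An exact sign-flip test within pairs, added after the data were seen, gave 0.125 and 0.875, where 4 pairs cannot go below 0.125.

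**Figure D3:**
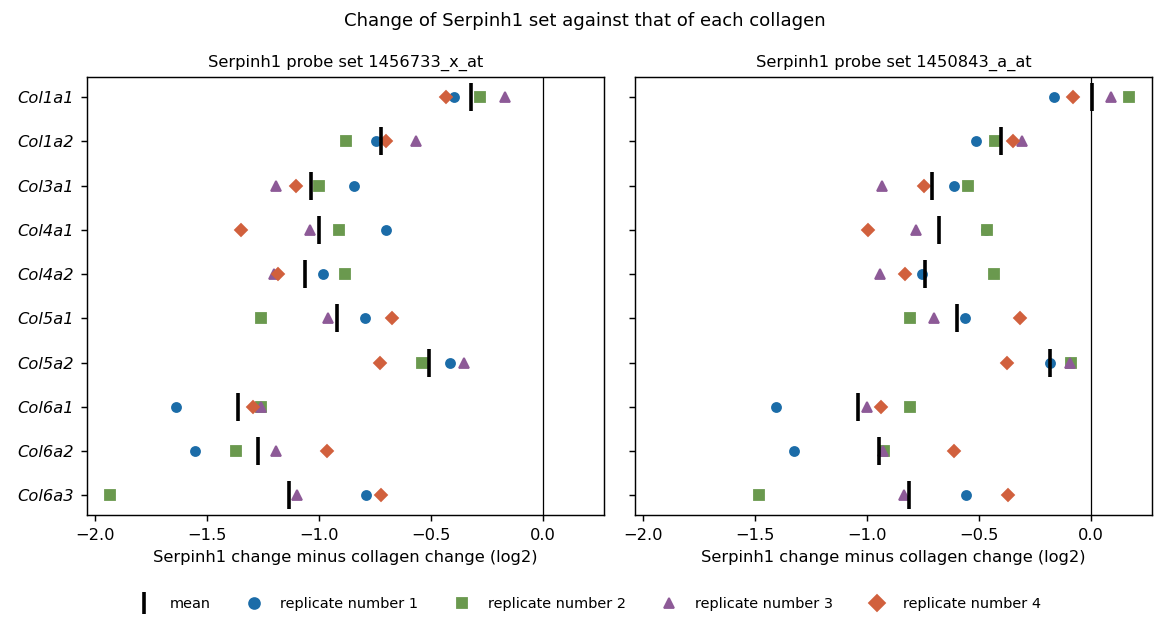
Change of Serpinh1 minus the change of each of 10 collagens (log2, 31.5 °C minus 37 °C), by replicate number (symbols) and as the mean (bar), for both Serpinh1 probe sets. With 1456733_x_at all points lie left of 0, and with 1450843_a_at Col1a1 straddles it at a mean of 0.00.

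The other matrix genes gave lower values in most cases and no call without the block. Fbln1 (1451119_a_at), which binds fibronectin and elastic fibres, was at 188, 109, 124 and 111 at 31.5 °C and at 242, 139, 167 and 154 at 37 °C. The groups overlapped, yet the difference within each number was nearly the same (-0.36, -0.35, -0.43 and -0.47). It had -0.40 ± 0.22 (adjusted p = 0.247) and fell with the block (adjusted p = 0.00686), also without any 1 replicate number. Its dimmer probe set 1422540_at, at 20.0 to 37.5 against 37.3 to 76.2, changed by -1.06 ± 0.26 (adjusted p = 0.0324 with probe sets tested singly). Lum, a keratan sulfate proteoglycan gene of collagen fibrils, was dim at 24.3 to 51.7 and 32.5 to 57.1. It had -0.39 ± 0.24 (adjusted p = 0.323) and fell with the block (adjusted p = 0.0239). Dcn, its neighbour and a further fibril proteoglycan gene, had -0.26 ± 0.31 (adjusted p = 0.614).

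Thbs1, a matricellular gene, was the only one of the 8 other matrix genes tested among the members with a value above 0 (with median scaling Ogn also lay at 0.0010). It was at 995, 1077, 921 and 2167 at 31.5 °C and at 708, 716, 962 and 989 at 37 °C. Replicate 3 at 31.5 °C was below the 2 highest warm arrays, and the others were above all 4. The change was 0.54 ± 0.26 (adjusted p = 0.203, and 0.0652 with the block). A second probe set, 1450377_at, gave 0.55 ± 0.28, higher in 4 of 4 pairs (adjusted p = 0.226), and rose with the block (adjusted p = 0.0489 with probe sets tested singly). Postn, a further matricellular gene, had -0.48 ± 0.33 (adjusted p = 0.364) and -0.81 without replicate 4 at 31.5 °C (adjusted p = 0.0482). The bright Sparc, which encodes a collagen-binding glycoprotein, was at 4439 ± 713 and 5112 ± 829 (-0.20 ± 0.15, adjusted p = 0.416), lower in 4 of 4 pairs. A further Sparc probe set, 1448392_at, had -0.08 ± 0.11, lower in 3 of 4 pairs (adjusted p = 0.689 with probe sets tested singly). Fn1, the fibronectin gene, had -0.15 ± 0.19 and the proteoglycan gene Ogn -0.09 ± 0.15. The dimmer Ogn probe set 1419662_at had -0.26 ± 0.21 (adjusted p = 0.463) and fell with the block (adjusted p = 0.04 with probe sets tested singly).

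Of the contractile and surface genes, Thy1 (1423135_at) was at 58.8, 70.1, 71.7 and 83.8 at 31.5 °C and at 119, 114, 78.4 and 109 at 37 °C. The groups overlapped by replicate 4 at 31.5 °C and replicate 3 at 37 °C. It fell by 0.55 ± 0.15 (adjusted p = 0.0428, up to 0.123 over the alternatives). Leaving out 1 array ended the call in 6 of the 8 cases, all but replicate 4 at 31.5 °C and replicate 3 at 37 °C. Median scaling, an intensity trend and no filter ended it too. Acta2, the smooth muscle actin gene, was at 5519 ± 1511 and 5267 ± 804 (0.04 ± 0.18, adjusted p = 0.90), read by a probe set ending in _s_at that can bind other transcripts. Tagln, an actin-binding gene of smooth muscle, had -0.26 ± 0.28 (adjusted p = 0.589).

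The members differed in what their variation went with. Over the 8 arrays, the replicate number took a median of 80.2% of the sum of squares of the collagens and temperature 5.64%, where over all genes tested the medians were 46.4% and 26.2%. For Col3a1 the number took 95.7% and for Col4a2 94.3%. For Serpinh1 and P4ha1 temperature took 86.2% and 86.0%, for Bmp1 82.9% and for Thy1 63.4%. Replicate 4 had the highest signal at both temperatures for 9 of the 10 collagens, all but Col1a2, and for 16.5% of all genes tested. These shares describe the arrays and were not tested.

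**Figure D4:**
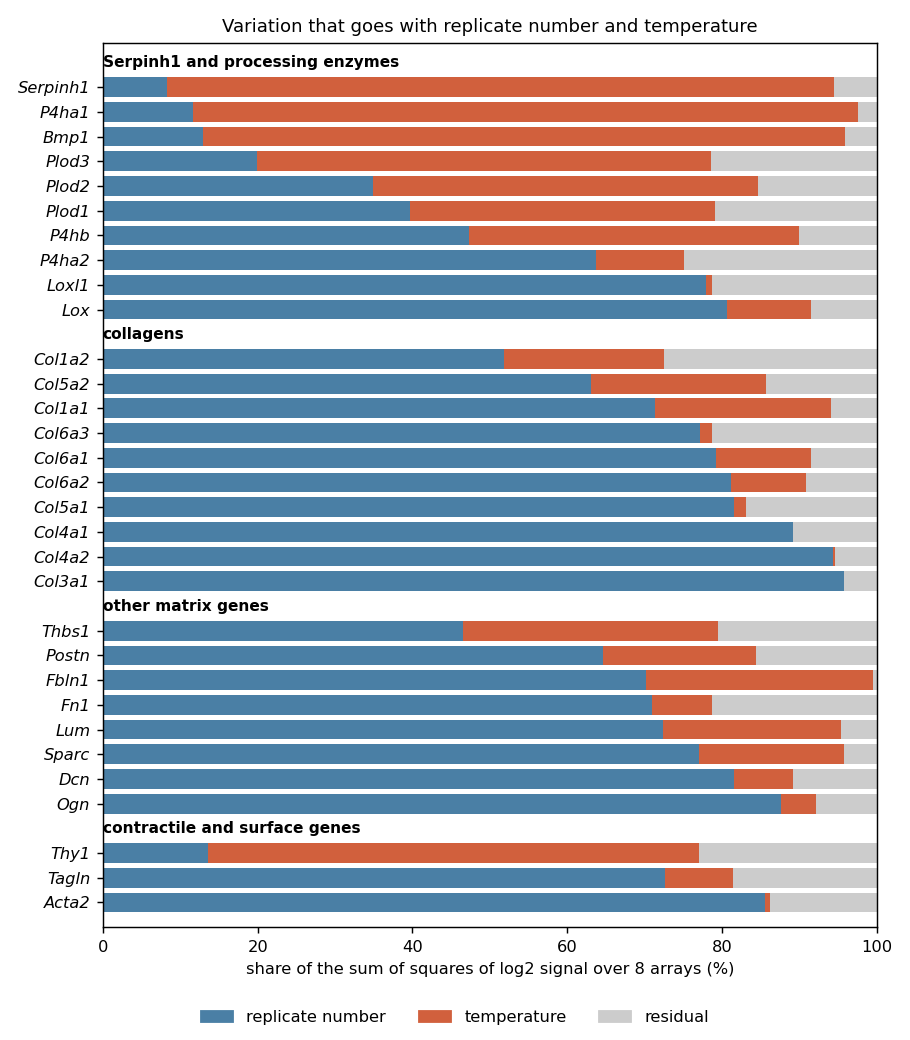
Shares of the sum of squares of log2 signal over the 8 arrays that go with replicate number (blue), temperature (orange) and the residual (grey), for each of the 31 members. The bars of Serpinh1, P4ha1 and Bmp1 are mostly temperature (86.2%, 86.0% and 82.9%), and those of Col3a1, Col4a1 and Col4a2 mostly replicate number (95.7%, 89.2% and 94.3%).

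Markers of other cells were read beside these values. The summed signal of 7 pericyte markers was 1136 and 1115 in replicate 4 at 31.5 °C and 37 °C, against 303 to 428 in the other 6 arrays. Rgs5 carried most of it. Without that gene the sum in replicate 4 was 244 against 138 to 189 in the other arrays at 31.5 °C. At 37 °C it was 434 against 198 to 273, so replicate 4 stayed the highest at each temperature. That of 13 fibroblast and meningeal markers outside the members was 932 and 838, against 450 to 563. Pdgfrb was at 368 and 288 in replicate 4, against 116 to 233 in the other 6 arrays. Tbx18 was at 177 and 112 against 42.6 to 69.8, and Foxc1 at 129 and 112 against 43.0 to 69.8. Prrx1 hardly stood apart, at 116 and 132 against 91.7 to 131. That of 7 smooth muscle markers was 517 and 448, against 288 to 399. Actg2 carried much of that excess, at 216 and 127 in replicate 4 against 60.8 to 103 in the other 6 arrays. Of these markers, 9 of 13, 4 of 7 and 4 of 7 did not reach the tested level, and the fibroblast markers Slc6a13, Slc6a20a and Pi16 were below the floor of 9.80 on all 8 arrays. Between temperatures 0 of 4 fibroblast, 0 of 3 pericyte and 1 of 3 smooth muscle markers passed, the last being Synpo2, which fell by 0.54 (adjusted p = 0.0402, up to 0.401 over the alternatives). Of the 3 pericyte markers, Anpep and Vtn fell and Rgs5 rose with the block. The part of these cells in the collagen values was not tested. In such bulk samples fewer cells of a type and less RNA per cell cannot be told apart. The labelled cell type was present by its markers: Olig1 was at 6727 ± 390 and 6752 ± 646, Olig2 at 1805 ± 203 and 2097 ± 271, Sox10 at 923 ± 39.7 and 1203 ± 238, Pdgfra at 2469 ± 365 and 1798 ± 168 and Cspg4 at 138 ± 34.5 and 120 ± 22.0 (SD, n = 4). Of 9 precursor markers tested, 2 rose and 2 fell (22.2% each, against 7.64% and 7.77% of all genes). Lhfpl3 rose by 0.67 and Pdgfra by 0.45 (adjusted p = 0.0373 for both). Gpr17 fell by 0.84 (adjusted p = 0.00242) and Nkx2-2 by 0.51 (adjusted p = 0.0355). All but the call of Gpr17 were lost under some alternatives (up to adjusted p = 0.203). With the block 2 rose and 3 fell. The 6 markers of differentiated oligodendrocytes tested fell, with summed signals of 9494 to 13590 at 31.5 °C and 18864 to 23515 at 37 °C, and their part in the member values was not tested. Of 9 neuron markers tested, Nefm rose by 0.71 (adjusted p = 0.0193, up to 0.0551 over the alternatives) and Gap43 fell by 0.63 (adjusted p = 0.0299, up to 0.097), and 4 fell and 1 rose with the block; neurons also express Thy1. Of 11 microglia and macrophage markers Fcrls fell by 1.58 (adjusted p = 0.0426, up to 0.118), and 4 fell with the block. Of 9 astrocyte and 2 endothelial markers 0 passed in limma (2 and 1 lower, 0 higher, at an unadjusted p under 0.05), and 5 and 2 fell with the block. The part of these cells in the member values was not tested either.

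Further genes of collagen processing and secretion, from a list of 25 of which 19 were tested, gave 2 rises and 1 fall (median -0.03; 3 and 2 with the block). That is 10.5% and 5.26%, near the 7.64% and 7.77% of all genes. P3h2, a prolyl 3-hydroxylase gene, was at 52.9, 46.5, 63.3 and 64.6 at 31.5 °C and at 133, 128, 195 and 126 at 37 °C, without overlap. It fell by 1.34 ± 0.17 (adjusted p = 0.00276). Crtap, which belongs to the complex of another prolyl 3-hydroxylase, was at 453 to 584 against 333 to 409 and rose by 0.51 ± 0.11 (adjusted p = 0.0183, and up to 0.0555 without replicate 1 or 3 at 31.5 °C). P3h1 and Ppib, the partners of Crtap in that complex, had 0.07 and 0.08 and did not pass. Fkbp7, a prolyl isomerase gene of the endoplasmic reticulum, was at 116 to 140 against 76.8 to 93.8 and rose by 0.59 ± 0.10 (adjusted p = 0.00708). Among genes of prolyl hydroxylation and isomerization, the member P4ha1 thus fell, as did P3h2 from outside the members. Crtap and Fkbp7, also from outside the members, rose.

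Collagen genes outside the members, 27 of which 17 were tested, gave 5 falls and 1 rise (median -0.34; 9 and 2 with the block), against 7.77% and 7.64% of all genes. Col9a1, a chain of a collagen that decorates fibrils, was at 153 to 186 at 31.5 °C and 298 to 402 at 37 °C, and fell by 1.07 ± 0.11 (adjusted p = 0.00126). Col20a1, of the same family, was at 55.4 to 85.6 and 145 to 207 and fell by 1.21 ± 0.16 (adjusted p = 0.0038). Col4a5, a basement membrane chain, fell by 0.95 ± 0.20 (adjusted p = 0.0155), and Col7a1 and Col11a2 changed by -0.53 and -0.54. Col18a1, a basement membrane collagen whose end gives endostatin, was at 330 to 432 against 145 to 226 and rose by 1.06 ± 0.15 (adjusted p = 0.00407). For each of Col9a1, Col20a1, Col4a5 and Col18a1 the groups did not overlap, and each passed under every alternative that tested it.

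**Figure D5:**
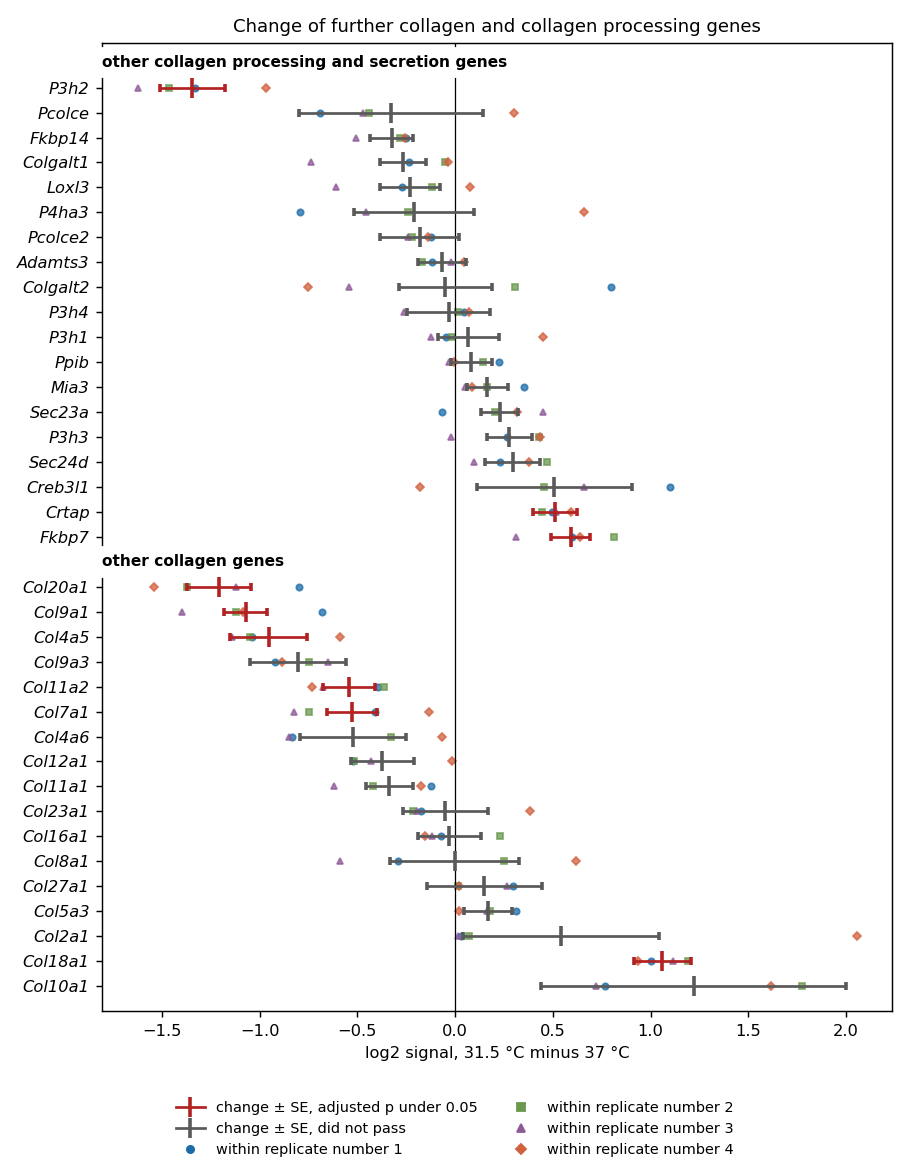
Log2 change, 31.5 °C minus 37 °C, of 19 further processing and secretion genes and 17 further collagens (tick with SE, red where adjusted p was under 0.05) and the difference within each replicate number (symbols). P3h2, Col20a1, Col9a1 and Col4a5 lie at -0.95 or lower and Col18a1 at 1.06.

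Of 17 matrix and matricellular genes tested outside the members, 2 rose and 1 fell (median -0.09). That is 11.8% and 5.88%, near the 7.64% and 7.77% of all genes. With the block 3 rose and 3 fell. Tgfbi, a matrix adhesion gene, rose by 1.31 ± 0.22 (adjusted p = 0.00733), the elastin gene Eln by 0.68 ± 0.17 (adjusted p = 0.0308, up to 0.0823), and Fmod, a fibril proteoglycan gene, fell by 0.71 ± 0.16 (adjusted p = 0.0186, up to 0.0745). Of 9 basement membrane genes, 10 matrix-degrading enzymes and inhibitors and 6 collagen receptors, 0 passed in limma, and at an unadjusted p under 0.05 the counts higher and lower were 1 and 0, 1 and 1, and 0 and 0. In the blocked fit 2, 1 and 0 rose and 0, 2 and 0 fell.

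Of 12 TGF-beta signalling genes 3 fell (25%) and 0 rose (3 and 2 with the block). They were the inhibitors Ski (-0.43, adjusted p = 0.0241, a call lost with its probe sets averaged, where the log2 change was 0.0053 and the adjusted p 0.979), Smad7 (-0.45, up to adjusted p = 0.235) and Skil (-0.32, up to 0.306). Of 13 folding genes of the endoplasmic reticulum, where Serpinh1 and the hydroxylases work, 7 fell (53.8%) and 0 rose, against 7.77% and 7.64% of all genes (median -0.36). With the block 10 fell. Hsp90b1 changed by -0.52 (up to adjusted p = 0.0793 over the alternatives), Sdf2l1 by -0.96 and Pdia6 by -0.46 (up to 0.0849). Of 12 heat shock factor targets 3 fell (25%) and 0 rose (median -0.12), and with the block 4 fell and 1 rose. The 3 were Hsph1 (-1.21), Chordc1 (-0.68, up to adjusted p = 0.0606) and Hspa1b (-0.49, up to 0.119). Hspa1b passed in 16 of 24 alternatives, and Sdf2l1 and Hsph1 in all 24.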

How the data were processed

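Total RNA of 8 samples was read on Affymetrix mouse arrays. The authors deposited linear probe set intensity values made with MAS5, per the submitters' processing notes. The version, the scaling target and detection calls are not given in the sources used here. Of 45101 probe sets, 34945 had a single gene symbol and were used; 932 with several, 9160 without a name and 64 controls were left out. Arrays were brought to a common trimmed mean (2% at each end), values under the 25th percentile (9.80) were raised to it, and log2 was taken. The probe set with the highest mean stood for a gene, and genes under the median mean of all probe sets were not tested.

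The temperature was fitted with limma 3.58.1 in R 4.3.3 (lmFit and eBayes, two-sided, Benjamini-Hochberg). Arrays of 1 replicate number correlated in their deviations from the group means at 0.541, 0.422, 0.497 and 0.614, against at most 0.0566 for different numbers, so the numbers pair the arrays and a blocked fit is given as well. Symbols came from the platform annotation, updated through RefSeq gene IDs. Serpinh1 was set against each collagen with exact permutation tests. The procedure was tested on simulated data. Named genes were the members, up to 3 genes of smallest p past the threshold in each list of pathway genes, the markers that a sentence needed, and genes of counts of 5 or fewer. The members, lists and alternatives were chosen with earlier results of these data known. Figures were drawn with matplotlib 3.10.9.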

Additional observations from a re-analysis of the deposited data

Results flagged for a closer look

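In 2 of the 62 groups of 4 arrays (31 genes at 2 temperatures) 1 array stood apart from the other 3 by Dixon's criterion on the log2 scale, where chance gives about 1 group in 20. Col5a2 was at 1546 in replicate 4 at 31.5 °C, where the other 3 arrays were at 594 to 642. Plod3 was at 741 in replicate 4 at 37 °C, where the other 3 were at 611 to 630.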

How the results depend on the processing

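Serpinh1 passed under all 24 alternatives and P4ha1 under 23, and no sign of the 4 members that passed changed under any. Median scaling shifted the typical gene by 0.089 (log2) and left 725 genes called, where 62.6% of calls were higher in place of 49.6%, with 1 member that fell and 0 that rose. With probe sets tested singly 2788 changed and 0 members rose, as when probe sets of a gene were averaged. With the replicate block 3548 genes changed, 8 members fell and 1 collagen changed. Leaving out 1 array gave 872 to 1591 changed genes, 2 to 6 members that fell, 0 that rose and 0 to 2 collagens that changed. Leaving out both arrays of a replicate number, in the fit with the block, gave 3, 3, 7 and 8 members that fell without numbers 1 to 4, 0, 0, 4 and 0 that rose, and 0, 0, 3 and 2 collagens that changed. Ski turned to 0.0053 when its probe sets were averaged. The causes were not tested. With the brighter Serpinh1 probe set, Serpinh1 minus each collagen kept its sign under all 16 alternatives. In the 4 that kept 8 arrays, 0 of 10 passed the threshold. With 3 against 4 arrays an exact p cannot go below 0.0571. The other Serpinh1 probe set, 1450843_a_at, was not among these alternatives, and with it the difference from Col1a1 was 0.0037. Precision is limited by 4 arrays a group. For the collagens the SE was up to 0.43 without the block and 0.12 to 0.21 with it.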
